A study of Mus musculus with 4 samples.

Results

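The fibroblast growth factor (FGF) ligands Fgf3, Fgf4, Fgf8, Fgf10 and Fgf17, the FGF receptors Fgfr1, Fgfr2, Fgfr3 and Fgfr4 and the receptor-like gene Fgfrl1 were followed in mouse embryonic stem cells given bone morphogenetic protein 2 (BMP-2). These 10 genes were taken by name, and every probe set that the platform annotation assigns to one of them alone was used. They are 10 of the 18193 genes named alone by a probe set, and hold 26 of the 45101 probe sets on the array, 11 for ligands and 15 for receptors. The study used E14Tg2A.4 cells, which derive from the E14 embryonic stem cell line, and measured their RNA on 4 one-colour Affymetrix arrays. On 2 arrays the cells had been given 25 ng/ml of BMP-2 over 1 h, and on the other 2 they were untreated controls. The titles of the controls give no time. Both groups were otherwise the same line, and the labels name no other agent, medium or feeder layer. Whether replicates were grown separately is not stated, so the p-values below reflect only array-to-array scatter, part or all of which could be technical.

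FGF ligands are secreted proteins that bind receptor tyrosine kinases at the cell surface together with heparan sulphate. The activated receptors signal through the adaptor FRS2 to RAS and the ERK kinases, and ERK output is damped by Sprouty, Spred and dual-specificity phosphatase proteins. Mouse embryonic stem cells make FGF4 themselves, and signalling from FGF4 through ERK is known to prime them to leave the naive state, while BMP signalling through SMAD1 and SMAD5 is known for helping to hold it.

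A signal is the deposited linear brightness of a probe set in arbitrary units. Probe sets differ in how well they bind, so a brighter probe set does not show a more abundant transcript, and brightness is given here only as the place of a probe set on its own array. A probe set was tested when its mean log2 signal over the 4 arrays lay above the 40th percentile, a signal of 53.0, and the detection calls of the arrays were not used. Of the 26 FGF probe sets 18 passed this limit and 8 did not. Among the 18, 16 were above the limit on all 4 arrays. Among the 8 below it, 6 were under the limit on all 4 arrays. The 18 tested probe sets cover 8 of the 10 genes, all but Fgf8 and Fgf10.

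Markers of embryonic stem cells were bright. All 8, with Pou5f1, Nanog and Sox2 among them, lay at or above percentile 94.5 of all probe sets on every array, and their summed signals were 90745 and 86444 with BMP-2, against 90980 and 85599 without. Of 8 fibroblast markers 6, Col1a1 among them, were below the limit. The summed fibroblast signals were 545 and 659 with BMP-2, against 594 and 591 without. Of 7 primitive endoderm markers 6 were above the limit, all at or under percentile 68.0. Their summed signals were 764 and 943 with BMP-2, against 647 and 766 without. Of 4 primed epiblast markers Dnmt3b, Otx2 and Pou3f1 were bright too, at or above percentile 92.4 on every array. The summed signals of the 4, Fgf5 included, were 18309 and 17955 with BMP-2, against 18033 and 17708 without. Of 7 trophoblast markers 4 were above the limit, at or under percentile 78.4, and Cdx2, Elf5 and Gata3 were below it. Their summed signals were 1496 and 1506 with BMP-2, against 1477 and 1539 without. By limma 0 markers of the 5 lists passed the adjusted threshold given below. The treatment was visible in Id1, Id2 and Id3, direct targets of BMP signalling, whose differences from untreated cells were 1.65, 1.76 and 1.73 log2 (limma, adjusted p = 2.0e-05, 3.6e-05 and 3.6e-05). In RNA from whole cultures, fewer cells of a type and less RNA per cell cannot be told apart.

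Among the ligands, Fgf4 and Fgf17 were bright and Fgf3, Fgf8 and Fgf10 lay near or under the limit. Fgf4 encodes the FGF that embryonic stem cells secrete. Its brightest probe set, 1420085_at, read 4056 and 4075 with BMP-2, against 3918 and 3858 in untreated cells, at percentiles 95.2 and 95.4 of the untreated arrays. A second Fgf4 probe set designed on the same accession, 1420086_x_at, read 3934 and 3980 with BMP-2, against 3767 and 3822 without. The 2 are not independent measures, and an x in a name marks probes that may bind related sequences. The third probe set, 1450282_at, read 945 and 870 with BMP-2, against 740 and 1032 without. The fourth, 1449729_at, is designed on the same accession as the 2 brightest. It was under the limit on all 4 arrays, at 42.6 and 43.1 with BMP-2 and 40.1 and 27.9 without. The brightness of Fgf4 was thus seen by 3 of its 4 probe sets.

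Fgf17 belongs to the FGF8 subfamily and is known for its part in early brain patterning. Its probe set 1421523_at read 826 and 742 with BMP-2, against 742 and 828 without, and 1456239_at read 404 and 467 with BMP-2, against 496 and 469 without. On the untreated arrays these lay between percentiles 76.2 and 83.1. Both were well clear of the limit on all 4 arrays.

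The other 3 ligands could not be told from dim probe sets. Fgf8, a ligand needed for cell movement at the primitive streak, has 1 probe set, which read 76.0 and 12.4 with BMP-2, against 55.8 and 56.0 without. The gap between the 2 BMP-2 arrays was larger than any difference between the groups. Fgf10, the mesenchymal ligand of lung and limb budding, read 40.4 and 41.1 with BMP-2, against 46.6 and 3.11 without, under the limit on all 4 arrays. Fgf3, a ligand of inner ear and tail development, was under it on all 4 arrays with 1422923_at and fell on both sides of it with the other 2 probe sets. Of these, 1441350_at was tested and read 48.7 and 76.2 with BMP-2, against 101 and 46.0 without, while 1441914_x_at read 64.5 and 89.8 with BMP-2, against 11.5 and 65.1 without. Treated and untreated signals overlapped for all 3 Fgf3 probe sets.

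**Figure D1:**
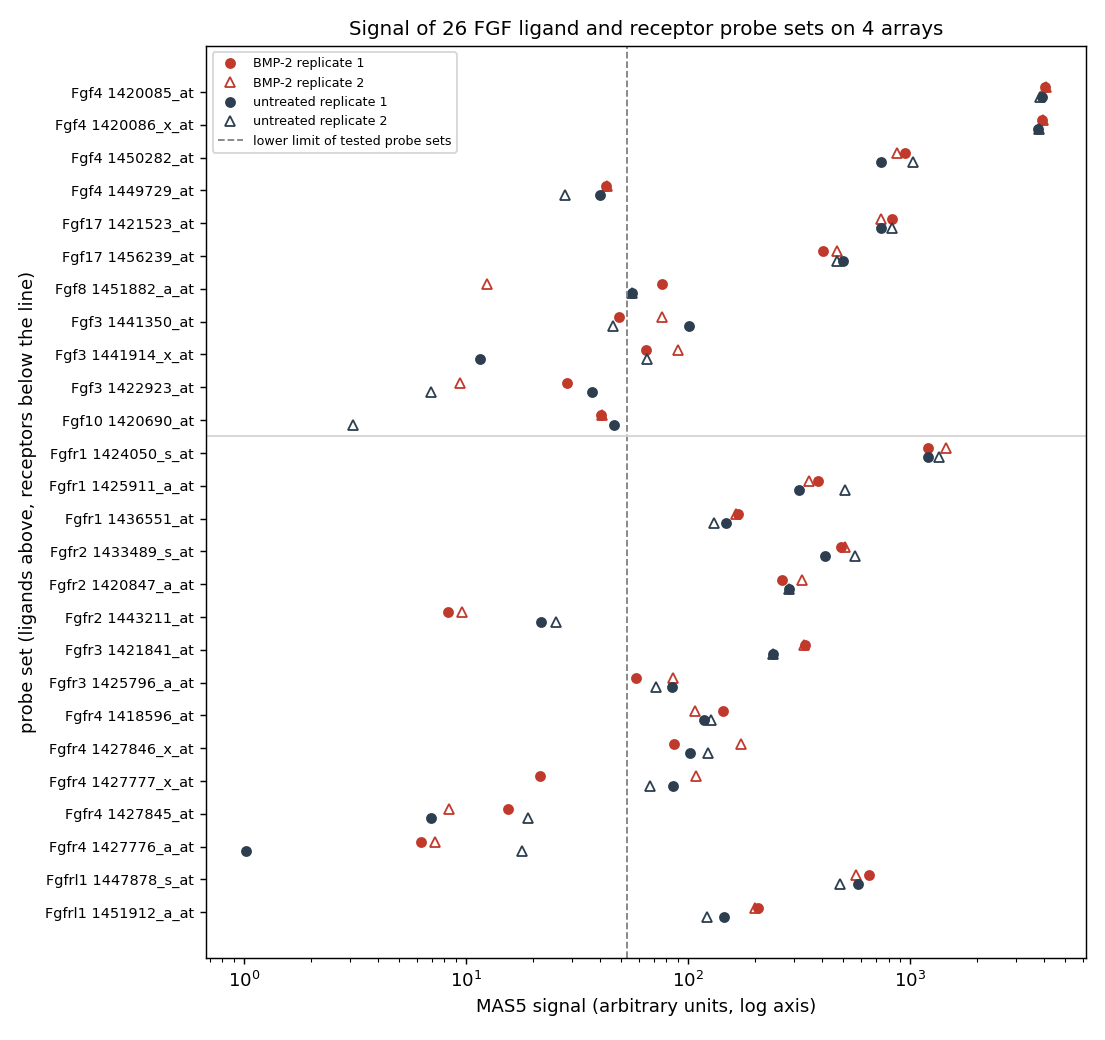
Signals of the 26 FGF probe sets (log axis, arbitrary units) on 2 BMP-2 arrays (red) and 2 untreated arrays (dark), with circles for replicate 1, triangles for replicate 2 and a dashed line at the limit of 53.0. Fgf4, Fgf17, Fgfr1, Fgfr2, Fgfr3 and Fgfrl1 each have at least 1 probe set well to the right of the line. Fgf8, Fgf10 and the Fgf3 probe sets lie on or left of it or close to it.

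Fgf3, Fgf4 and Fgf15 follow one another on mouse chromosome 7 with no other protein-coding gene between them in the RefSeq annotation of GRCm38.p6. Fgf4 was bright and its neighbour Fgf3 dim, so the 250 bases before the start of each are shown, from RefSeq, 5′ to 3′ on the plus strand. Capitals mark GGCGCC and GGAGCC (which reads GGCTCC on the other strand), GC-rich words of the kind SMAD1 and SMAD5 are known to bind.
Fgf4, chr7:144861136-144861385: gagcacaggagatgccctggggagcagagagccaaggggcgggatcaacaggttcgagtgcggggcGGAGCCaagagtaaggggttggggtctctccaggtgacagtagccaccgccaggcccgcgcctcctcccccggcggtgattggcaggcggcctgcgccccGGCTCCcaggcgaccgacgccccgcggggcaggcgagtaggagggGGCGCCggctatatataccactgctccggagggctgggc
Fgf3, chr7:144838362-144838611: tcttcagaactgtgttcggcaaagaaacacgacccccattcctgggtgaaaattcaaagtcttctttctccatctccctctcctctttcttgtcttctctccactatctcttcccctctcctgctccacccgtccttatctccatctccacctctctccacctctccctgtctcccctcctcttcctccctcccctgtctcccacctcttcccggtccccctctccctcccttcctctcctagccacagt
The Fgf4 window holds 1 GGCGCC, 2 GGAGCC and 2 GGGCGG, the core word of SP1 sites, searched on both strands, and 1 GGGCGG overlaps a GGAGCC. The Fgf3 window holds none of these. Of 32851 windows of the same length before annotated starts, 9.59% hold GGCGCC, 26.0% hold GGAGCC and 32.7% hold GGGCGG. The windows are 71.2% G or C for Fgf4 and 55.2% for Fgf3, and the median over all windows is 52.4%. A match is a description of the letters and not a binding site, and the absence of a word says only that these letters are not in this window.

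All 5 receptor genes had at least 1 tested probe set. Fgfr1, known as the main receptor for FGF4 in embryonic stem cells, had 3 tested probe sets. Of these 1424050_s_at read 1200 and 1448 with BMP-2, against 1204 and 1351 without, at percentiles 87.1 and 88.1 of the untreated arrays. A name with s marks probes shared by more than 1 transcript, and a name with a marks several transcripts of a gene. The other Fgfr1 probe sets read 386 and 351 with BMP-2, against 316 and 511 without (1425911_a_at), and 167 and 164 with BMP-2, against 149 and 131 without (1436551_at).

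Fgfr2, a receptor whose splice forms differ between epithelium and mesenchyme, was tested on 2 of its 3 probe sets. Probe set 1433489_s_at read 487 and 510 with BMP-2, against 413 and 565 without, and 1420847_a_at read 264 and 326 with BMP-2, against 284 and 285 without. The third, 1443211_at, read 8.31 and 9.55 with BMP-2, against 21.7 and 25.6 without. The groups of this last probe set did not overlap, but every one of its signals was under the limit, so no fold is given and it was not tested. The tested pair of Fgfr2 probe sets overlapped between the groups.

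Fgfr3, a receptor known for restraining bone growth, read 338 and 332 with BMP-2, against 240 and 242 without, on probe set 1421841_at. On 1425796_a_at it read 58.0 and 85.5 with BMP-2, against 84.5 and 71.8 without. The BMP-2 arrays were the higher ones on the first probe set, and the groups overlapped on the second.

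Fgfr4, the receptor that with the co-receptor KLB receives FGF15 in liver, has 5 probe sets. The one with a plain name and a signal above the limit, 1418596_at, read 144 and 108 with BMP-2, against 118 and 126 without. A further 2 tested probe sets carry an x, namely 1427846_x_at with 86.6 and 174 with BMP-2, against 102 and 123 without, and 1427777_x_at with 21.6 and 108 with BMP-2, against 85.9 and 67.7 without. The remaining 2, 1427845_at and 1427776_a_at, were under the limit on all 4 arrays, between 1.03 and 19.1. The signals of all 5 Fgfr4 probe sets overlapped between the groups, and no array order was shared by all 5.

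Fgfrl1 encodes an FGF-binding membrane protein that lacks the tyrosine kinase domain of the 4 classical receptors. It read 655 and 571 with BMP-2, against 580 and 484 without, on 1447878_s_at. It read 206 and 200 with BMP-2, against 146 and 121 without, on 1451912_a_at. The groups overlapped on the first and did not on the second.

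The comparison of BMP-2 with untreated cells asked how these genes differed after 1 h. None of the 18 tested FGF probe sets passed the threshold, an adjusted p under 0.05 by limma over all 27022 tested probe sets, where 0.0185% of probe sets passed, all of them higher with BMP-2. The adjusted p was 1.00 for each of the 18. At an unadjusted p under 0.05 there were 2 of them, 1 Fgfr3 and 1 Fgfrl1 probe set, while 3.07% of all tested probe sets reached that level. Of the 18, 12 were higher and 6 lower, with a median difference of 0.05 log2, and over all tested probe sets 52.2% were higher, with a median of 0.01 log2. The 2 groups of signals were fully separate for 6 of the 18, 5 of them higher and 1 lower, and for 28.4% of all tested probe sets (15.9% higher and 12.5% lower). Several of the 18 report on the same gene, and 2 on the same accession, so they do not count as separate genes.

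For the ligands the intervals give the precision of each difference on these arrays. As the replicates may not be separate cultures, the intervals need not bound the change in the cells. Fgf4 on 1420085_at averaged 4066 ± 13.4 with BMP-2 and 3888 ± 42.7 without (SD, n = 2 each), a difference of 0.06 ± 0.08 log2 (SE). Its 95% interval ran from -0.11 to 0.24 log2, or from 0.929-fold to 1.18-fold. The groups did not overlap, yet the gap was smaller than its SE. This SE and the others given here are limma's, which draw the variance of a probe set toward the trend over all tested probe sets. The second bright Fgf4 probe set gave the same, 0.06 log2 with an interval of -0.11 to 0.23, and 1450282_at gave 0.05 log2 with an interval of -0.29 to 0.40.

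Fgf17 differed by 0.00 log2 (95% interval -0.28 to 0.27) on 1421523_at and by -0.15 log2 (-0.47 to 0.17) on 1456239_at. The second was lower on both BMP-2 arrays than on either untreated array, by less than 2 on the signal scale between the nearest arrays. The tested Fgf3 probe set differed by -0.16 log2 with an interval of -1.17 to 0.85, too wide to bound its change. On these 4 arrays the intervals were thus narrow for the 2 brightest Fgf4 probe sets and wide for Fgf3.

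For the receptors the largest separations were those of Fgfr3 and Fgfrl1. Fgfr3 on 1421841_at averaged 335 ± 3.92 with BMP-2 and 241 ± 1.35 without (SD, n = 2 each), a difference of 0.47 ± 0.16 log2 or 1.39-fold (95% interval 1.09 to 1.78, limma unadjusted p = 0.0142, adjusted p = 1.00). Fgfrl1 on 1451912_a_at averaged 203 ± 4.34 with BMP-2 and 133 ± 17.4 without, a difference of 0.61 ± 0.21 log2 or 1.53-fold (1.10 to 2.13, limma unadjusted p = 0.0166, adjusted p = 1.00). These were the only 2 of the 18 whose interval left out 0. Leaving out any 1 array kept the Fgfr3 difference between 0.46 and 0.49 log2 and that of Fgfrl1 between 0.48 and 0.75 log2. The unadjusted p by limma then ran to 0.068 for Fgfr3, above 0.05 without either BMP-2 array, and to 0.082 for Fgfrl1, above 0.05 without BMP-2 replicate 1 or untreated replicate 2. Both Fgfrl1 probe sets had their lowest signal on untreated replicate 2, the array on which 18S ribosomal RNA read 3.94 to 6.11 times the highest of the others, and its part in these values was not tested. Without it they differed by 0.48 log2 (1451912_a_at) and 0.077 log2 (1447878_s_at).

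The other probe sets of the same 2 genes gave less. Fgfr3 on 1425796_a_at differed by -0.15 log2 (95% interval -0.92 to 0.63), the opposite sign, and the mean over both probe sets was 0.16 log2. Fgfrl1 on 1447878_s_at differed by 0.21 log2 (-0.11 to 0.53), the same sign, and the mean over both was 0.41 log2. So the 2 Fgfrl1 probe sets both read higher with BMP-2, while for Fgfr3 a single probe set did. Neither gene passed the threshold in any of the 12 alternative settings.

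**Figure D2:**
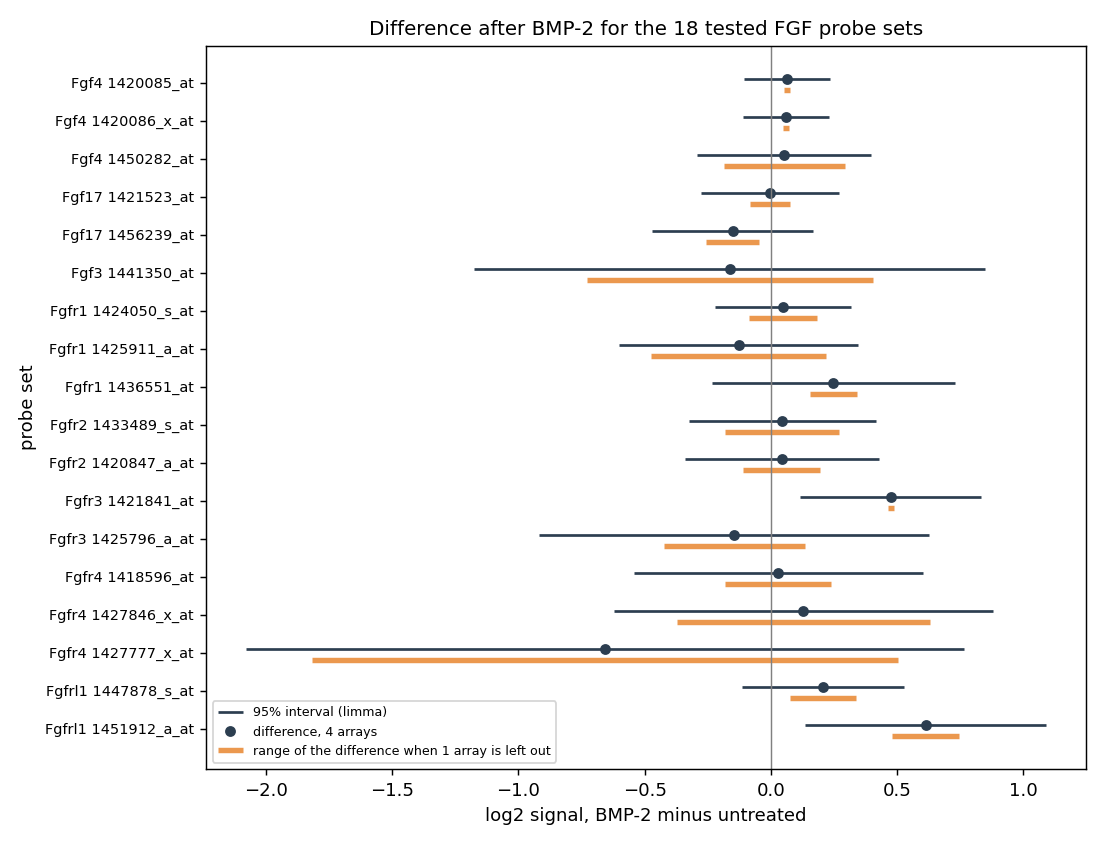
Difference in log2 signal, BMP-2 minus untreated, for the 18 tested FGF probe sets, with the limma 95% interval (dark line) and the range when 1 array is left out (orange bar). Only the intervals of Fgfr3 1421841_at and Fgfrl1 1451912_a_at leave out 0, and the intervals of Fgf4 1420085_at and 1420086_x_at are the narrowest.

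Fgfr1 differed by 0.05 log2 (95% interval -0.22 to 0.32) on its brightest probe set, by -0.13 (-0.60 to 0.35) on 1425911_a_at and by 0.25 (-0.23 to 0.73) on 1436551_at, where both BMP-2 arrays were the higher ones. Fgfr2 differed by 0.04 log2 on both tested probe sets, with intervals of -0.33 to 0.42 and -0.34 to 0.43. Fgfr4 differed by 0.03 log2 (-0.54 to 0.60) on 1418596_at, 0.13 (-0.62 to 0.88) on 1427846_x_at and -0.66 (-2.08 to 0.76) on 1427777_x_at. The last was the largest difference among the 18 in size, and it rested on 1 BMP-2 array at 21.6. Without that array it was 0.50 log2, without the other BMP-2 array -1.82 log2, and with signals under the limit raised to it -0.01 log2.

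The limma SE and intervals rest mostly on the variance trend over all tested probe sets, with 7.98 prior against 2 residual degrees of freedom. The spread between the arrays of each group was also read directly. The difference between groups was larger than the difference between the 2 arrays of either group for 5 of the 18 probe sets, and for 17.5% of all tested probe sets. The 5 were both bright Fgf4 probe sets, Fgfr1 1436551_at, Fgfr3 1421841_at and Fgfrl1 1451912_a_at. For Fgfr4 1427777_x_at the 2 BMP-2 arrays were 2.32 log2 apart, and for Fgf3 1441350_at the 2 untreated arrays were 1.13 log2 apart.

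**Figure D3:**
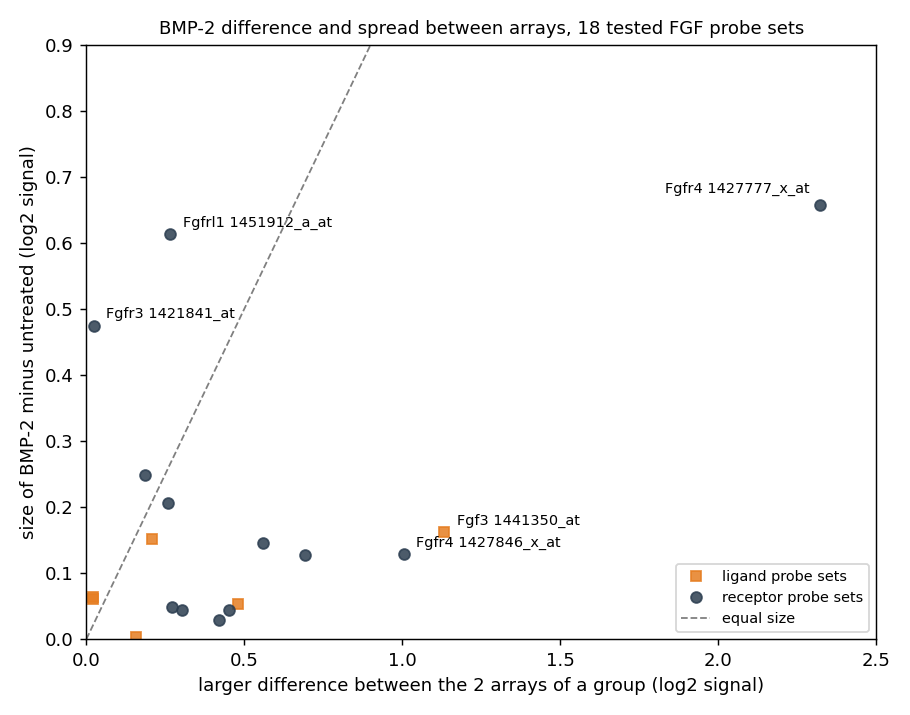
Size of the BMP-2 difference (vertical, log2 signal) against the larger of the differences between the 2 arrays of a group (horizontal, log2 signal) for the 18 tested FGF probe sets, ligands as orange squares and receptors as dark circles. Fgfr3 1421841_at and Fgfrl1 1451912_a_at lie above the dashed line of equal size, and Fgfr4 1427777_x_at lies far to its right at a spread of 2.32 log2.

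The windows of 250 bases before the starts of Fgfr3 and Fgfrl1, the 2 receptor genes with the largest separations, are shown from RefSeq (GRCm38.p6, plus strand, 5′ to 3′) with the same capitals. Fgfr3 has a second annotated start, not shown.
Fgfr3, chr5:33721474-33721723: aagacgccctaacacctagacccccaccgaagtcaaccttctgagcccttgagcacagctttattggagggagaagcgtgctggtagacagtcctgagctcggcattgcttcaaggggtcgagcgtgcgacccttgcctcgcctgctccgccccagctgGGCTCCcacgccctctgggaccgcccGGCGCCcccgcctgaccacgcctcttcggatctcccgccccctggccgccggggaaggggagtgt
Fgfrl1, chr5:108693979-108694228: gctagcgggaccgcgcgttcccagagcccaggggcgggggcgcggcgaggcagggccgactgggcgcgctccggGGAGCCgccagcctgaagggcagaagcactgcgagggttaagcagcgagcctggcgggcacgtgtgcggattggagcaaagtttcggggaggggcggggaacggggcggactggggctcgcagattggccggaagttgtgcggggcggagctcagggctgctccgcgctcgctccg
The Fgfr3 window shown holds 1 GGCGCC, 1 GGAGCC (as GGCTCC) and 3 GGGCGG, and the Fgfrl1 window holds 0 GGCGCC, 1 GGAGCC and 4 GGGCGG. The window of the second Fgfr3 start holds 1 GGCGCC, 0 GGAGCC and 2 GGGCGG. The 2 Fgfr3 windows are 66.8% and 72.8% G or C and the Fgfrl1 window 73.6%, against a median of 52.4% over all windows. At least 1 of GGCGCC and GGAGCC is found in 31.7% of the 32851 windows. Windows for Fgf10, Fgfr2 and Fgfr4 hold neither. The word CAGAC, also bound by SMAD proteins, is in 42.2% of all windows and in 0 of the 8 windows found for 7 of the 10 genes. Fgf4, whose signal differed by 0.06 log2, holds both GC-rich words as well. Whether the words bear on any difference was not tested.

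Other genes of the pathway were read from 4 lists, a gene by its brightest tested probe set, and none passed the threshold in either direction (limma, adjusted over all probe sets). At an unadjusted p under 0.05 by limma there were 2 other FGF ligands and 3 target and feedback genes, and 0 in the other lists. Counted by probe set, 10 of the 123 tested ones of these lists reached that level, and 3.07% of all tested probe sets did. Several of the 123 report on the same gene. Over all 12976 tested genes, 53.0% were higher, the median difference was 0.01 log2 and the groups did not overlap for 28.8%. Of 17 other FGF ligands 9 were tested, 5 higher and 4 lower, with a median of 0.00 log2, and the groups did not overlap for 5. Fgf15, the neighbour of Fgf4 that acts in the embryo and gut, read 771 and 647 with BMP-2, against 512 and 518 without, a difference of 0.46 ± 0.13 log2 (SE). Fgf18, of the same subfamily as Fgf8 and Fgf17, read 200 and 236 with BMP-2, against 145 and 165 without (0.49 ± 0.21 log2). Fgf1 read 201 and 208 with BMP-2, against 161 and 157 without (0.36 ± 0.20 log2). On these probe sets the 3 genes were higher on both BMP-2 arrays, each with an adjusted p of 1.00 by limma. The other tested Fgf1 probe set, 1423136_at, lay the other way, at -0.40 log2. Fgf5, a mark of the primed epiblast, read 98.8 and 68.8 with BMP-2, against 189 and 90.6 without, and its groups overlapped. Fgf14, which acts inside the cell on sodium channels, read 35.6 and 68.7 with BMP-2, against 80.0 and 78.2 without.

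Of 23 co-receptor and heparan sulphate genes 20 were tested, 10 higher and 10 lower, with a median of 0.00 log2. Gpc3, a glypican, read 516 and 574 with BMP-2, against 493 and 419 without (0.26 ± 0.14 log2, SE). Hs6st2, which adds sulphate to heparan chains, read 234 and 257 with BMP-2, against 317 and 269 without (-0.25 ± 0.18 log2). Sdc3, a syndecan, differed by -0.68 ± 0.36 log2 with overlapping groups. None of these differences was as large as 2 of its SE. Other tested probe sets of this list, picked with their values known, lay further from 0. They were Sdc3 1420853_at at -1.22 log2, Ext1 1458054_at at -1.19 log2 and Sdc1 1415944_at at -1.02 log2. Sdc2 1417011_at lay the other way, at 0.61 log2. None of them passed the threshold (limma). The brightest probe sets of Ext1, Sdc1 and Sdc2 lay at -0.02, -0.03 and 0.04 log2.

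Of 21 adaptors and ERK cascade genes 15 were tested, 11 higher and 4 lower, with a median of 0.03 log2, and 6 were not analysed here. Sos2, an exchange factor that activates RAS, read 160 and 170 with BMP-2, against 109 and 126 without (0.49 ± 0.23 log2, SE). Its relative Sos1 read 633 and 642 with BMP-2, against 568 and 574 without (0.16 ± 0.12 log2). Both were higher on each BMP-2 array than on either untreated array. The adaptor Shc1 lay the other way, at -0.15 ± 0.10 log2.

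Of 15 FGF target and feedback genes 14 were tested, 9 higher and 5 lower, with a median of 0.09 log2, and the groups did not overlap for 8 of them, 6 higher and 2 lower. Dusp5, an ERK phosphatase, read 575 and 482 with BMP-2, against 294 and 301 without (0.82 ± 0.15 log2, limma adjusted p = 0.423). Dusp6, another ERK phosphatase, read 3109 and 2864 with BMP-2, against 2583 and 2105 without (0.36 ± 0.11 log2), and Spred2, an inhibitor of RAF activation, read 3619 and 3552 with BMP-2, against 3059 and 3111 without (0.22 ± 0.08 log2). The other tested Spred2 probe sets lay at 0.49, 0.43 and 0.10 log2 and, for 1441802_at, at -0.66 log2. Etv4, an ETS factor induced by FGF signalling, read 1115 and 1115 with BMP-2, against 1353 and 1257 without (-0.23 ± 0.10 log2). Further members of these kinds, picked with their values known, lay at -0.14 log2 (Dusp4), -0.10 log2 (Spry2), 0.12 log2 (Spred1) and -0.02 log2 (Etv5). Spry1 lay at 0.17 log2, Il17rd, another feedback inhibitor, at 0.11 log2 and Spry4 at 0.00 log2. The 6 genes higher without overlap were Dusp5, Dusp6, Spred2, Spry1, Spred1 and Il17rd, and the 2 lower were Etv4 and Dusp4. The groups did not overlap for 28.8% of all tested genes, and the ERK inhibitors of the list lay on both sides of 0.

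**Figure D4:**
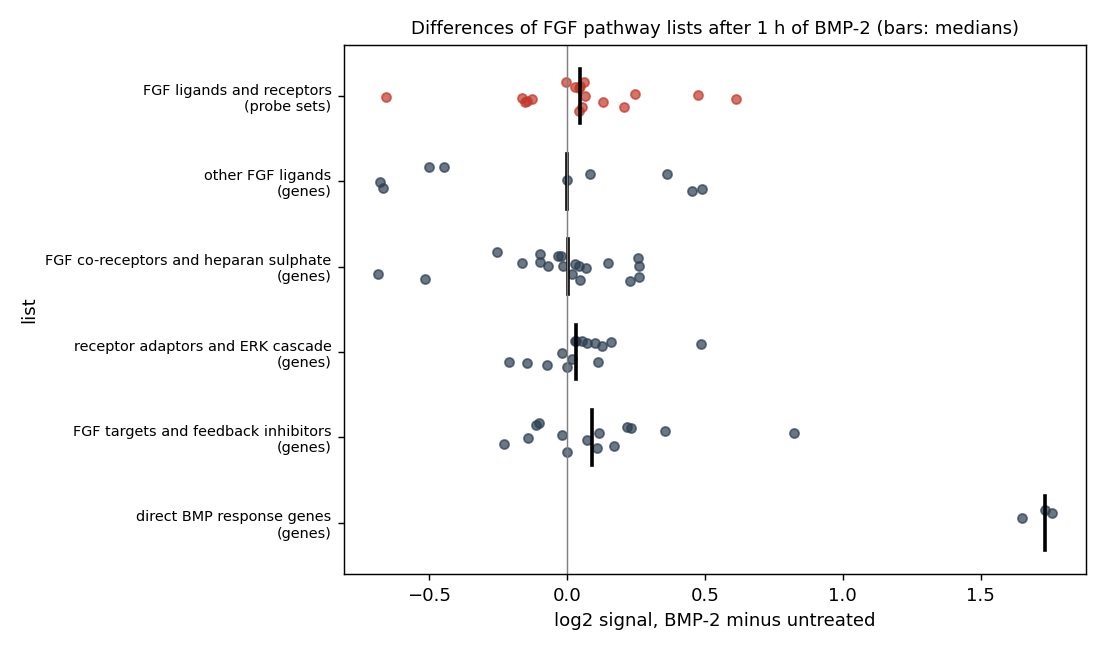
Differences in log2 signal, BMP-2 minus untreated, for the 18 tested FGF probe sets (red) and for the tested genes of each other list (dark), with black bars at the medians and points spread vertically for visibility. The medians of the FGF lists lie between 0.00 and 0.09 log2, against 1.73 log2 for Id1, Id2 and Id3.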

How the data were processed

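Biotin-labelled cRNA from 4 samples was hybridised to one-colour Affymetrix arrays, per the labels' protocols. The authors deposited 1 linear intensity for each probe set and array. The submitters' processing notes name MAS5, which combines perfect-match and mismatch probes, and its version is not given in the sources used here. Their 2%-trimmed mean was 500 on each array. The number of arrays limits the precision. Samples were grouped by title.

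Signals were taken as log2. Array medians lay within 0.21 log2 and were left as deposited. They were 6.35 (BMP-2) and 6.36 (untreated) log2 on the replicate 1 arrays, against 6.57 (BMP-2) and 6.56 (untreated) on the replicate 2 arrays. After 64 control probe sets were dropped, 27022 of 45037 probe sets above the 40th percentile of mean log2 signal were tested with limma 3.58.1 in R 4.3.3 (lmFit, eBayes with a trend on signal, 2 residual and 7.98 prior degrees of freedom), two-sided, with Benjamini-Hochberg adjustment. The members and lists were chosen with earlier results of these data known. All member probe sets are named, with up to 5 genes of each other list by smallest p. In the target and feedback list and the heparan sulphate list further genes were named with their values known. Probe sets carry 1 gene symbol in 34945 cases, several in 932 and none in 9160. No coordinates were used beyond RefSeq promoter windows. The 12 alternatives, in normalization, pseudocount, filter, variance model, replicate block, arrays and probe set averaging, were run over the whole table.

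Arrays with equal replicate number had nearly equal medians and deviated together at r = 0.15 over probe sets. The labels give the number no meaning, so it was not used as a pairing in the main fit.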

Additional observations from a re-analysis of the deposited data

How the results depend on the processing

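No FGF probe set passed in any of the 12 alternatives (0 in each, limma). With 18 tested probe sets these gave 197 differences, of which 177 kept their sign and 20 turned, 17 of these with 1 array left out. The other 3 were Fgf17 1421523_at at 0.00019 log2 after median centring, Fgfr4 1418596_at at -0.00087 log2 after quantile normalization and Fgfr2 at -0.44 log2 when its probe sets were averaged, which includes the one under the limit. Leaving out 1 array gave -0.082 to 0.076 log2 for Fgf17 1421523_at, -0.73 to 0.40 for Fgf3 1441350_at, -0.19 to 0.29 for Fgf4 1450282_at, -0.087 to 0.18 for Fgfr1 1424050_s_at, -0.47 to 0.22 for Fgfr1 1425911_a_at, -0.11 to 0.20 for Fgfr2 1420847_a_at, -0.18 to 0.27 for Fgfr2 1433489_s_at, -0.42 to 0.13 for Fgfr3 1425796_a_at, -0.18 to 0.24 for Fgfr4 1418596_at, -0.37 to 0.63 for Fgfr4 1427846_x_at. For Fgfr4 1427777_x_at it gave -0.83 to 0.50 in the 2 of 4 settings where it passed the limit and -1.82 to 0.50 over all 4. The remaining 7 tested probe sets, Fgfr3 1421841_at and both Fgfrl1 probe sets among them, kept their sign in every alternative. Over all probe sets 5 passed, against 116 after median centring, 8 with the stricter filter, 11 with the replicate block, 0 without the variance trend (1023 at an unadjusted p under 0.05) and 15 to 140 with 1 array left out, where the lone array of a group is taken to vary like the other group. Of the other pathway probe sets 0 passed, against 3 after median centring. These were Sdc1 1415944_at, Sdc3 1420853_at, which is not the brightest Sdc3 probe set, and Dusp5. With 1 array left out the calls of these lists moved too, where 1 group rests on a lone array. The causes were not tested. The replicate block changed no call of an FGF probe set. Dim signals limit Fgf3, Fgf8 and Fgf10.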

Other observations

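On untreated replicate 2 the 3 probe sets for 18S ribosomal RNA read 3.94 to 6.11 times the highest of the other arrays. Of the 26 FGF probe sets 8 had their lowest signal on that array, both of Fgfrl1 among them. On BMP-2 replicates 1 and 2 these were 7 and 3, and on untreated replicate 1 they were 8. Of the 18 tested, 6 and 2 were lowest on BMP-2 replicates 1 and 2 and 5 on each untreated array, and 22.8% of all tested probe sets were lowest on untreated replicate 2.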
